A study of Mus musculus with 24 samples.

Results

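The regulatory T cell core genes described here are 9 genes listed by name, Foxp3, Ikzf2, Ikzf4, Il2ra, Il2rb, Nrp1, Lrrc32, Nt5e and Entpd1, out of 27179 gene identifiers in the count table. The list was drawn up by name, with earlier results of these data known. All 9 were found by their Entrez identifier. They were followed across 24 RNA-seq libraries from the colonic lamina propria of 8 mice, to ask whether CD4 T cells that express the neuromedin U receptor NMUR1 hold more regulatory T cell RNA than CD4 T cells that do not. Every mouse was an Nmur1iCre-eGFP mouse, in which Cre and eGFP are driven from Nmur1, and every mouse had colitis induced with 3% dextran sulfate sodium, a detergent-like polymer that damages the gut lining, in the drinking water for 5 days and was then on plain water for 3 days. Mice 1 to 4 were injected intraperitoneally with neuromedin U (NMU) and mice 5 to 8 with phosphate-buffered saline (PBS), on alternate days. Each mouse gave a library of eGFP+ CD4 T cells (NMUR1+ CD4 below), a library of eGFP- CD4 T cells (NMUR1- CD4) and a library of eGFP+ group 2 innate lymphoid cells (ILC2), so the 6 groups of population and treatment had n = 4 each. The labels name 4 mice per treatment where the series' design text counts 3. The CD4 gate used CD45, CD3, CD5 and CD4 and no marker of regulatory T cells, and the ILC2 gate used KLRG1, CD90.2 and CD127 on cells negative for lineage markers. No age or sex of the mice is used here.

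Regulatory T cells are CD4 T cells that restrain immune responses, and in the colon they hold back inflammation against food and microbes and take part in tissue repair. Their lineage is fixed by the transcription factor FOXP3, which works together with the Ikaros family proteins Helios (Ikzf2) and Eos (Ikzf4). They depend on interleukin 2, which they bind through CD25 (Il2ra) and the shared beta chain CD122 (Il2rb). GARP (Lrrc32) holds latent TGF-beta on their surface, neuropilin 1 (Nrp1) is a coreceptor for semaphorins and VEGF, and the ectoenzymes CD39 (Entpd1) and CD73 (Nt5e) turn extracellular ATP into adenosine, which dampens T cells. Only FOXP3 comes close to defining the lineage: the others are also found in activated T cells, ILC2, myeloid cells, endothelium or fibroblasts.

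In bulk RNA of sorted cells, more regulatory T cells in a population and more RNA of these genes per cell cannot be told apart. The genes lie on 9 chromosomes of the GRCm38 build, all annotated as protein coding. Foxp3 (gene 20371) is at chromosome X, 7579676 to 7595243, Il2ra (gene 16184) at chromosome 2, 11642792 to 11693194, and Entpd1 (gene 12495) at chromosome 19, 40612366 to 40741602. Ikzf2 (gene 22779) is at chromosome 1, 69531207 to 69687351, Ikzf4 (gene 22781) at chromosome 10, 128630839 to 128669671, and Il2rb (gene 16185) at chromosome 15, 78479256 to 78511621. Nrp1 (gene 18186) is at chromosome 8, 128358591 to 128505476, Lrrc32 (gene 434215) at chromosome 7, 98489305 to 98501831, and Nt5e (gene 23959) at chromosome 9, 88327609 to 88372089.

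Promoter windows of 300 bases, from 250 before to 50 after an annotated transcript start, were found in the RefSeq table of GRCm38.p6 for 5 of the 9 genes. Those of Foxp3 and Entpd1 are shown because Foxp3 is the gene the question turns on and Entpd1 was the listed gene whose level followed it most closely. Each has a pair of annotated starts. Capitals mark matches to motifs, searched on both strands save for the TATA box. Motif TTCNNNGAA is bound by STAT factors, which signal from the interleukin-2 receptor, and the cyclic AMP response element was searched as TGACGTCA. The forkhead motif, read by Foxp3 and its relatives, was searched as TGTTTAC. Runx factors, which partner Foxp3 on DNA together with the subunit encoded by Cbfb, were represented by the shorter motif TGTGGT. The TATA box, a core promoter element that is directional, was searched only on the strand of the gene, as TATAAA.
Foxp3 promoter, chrX:7579426-7579725, + strand: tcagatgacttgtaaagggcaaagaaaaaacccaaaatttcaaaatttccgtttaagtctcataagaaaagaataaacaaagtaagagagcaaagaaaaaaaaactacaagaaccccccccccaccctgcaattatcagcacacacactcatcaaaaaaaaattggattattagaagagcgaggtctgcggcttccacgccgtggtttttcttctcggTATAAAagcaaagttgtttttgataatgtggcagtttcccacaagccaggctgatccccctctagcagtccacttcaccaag
Foxp3 promoter, chrX:7580233-7580532, + strand: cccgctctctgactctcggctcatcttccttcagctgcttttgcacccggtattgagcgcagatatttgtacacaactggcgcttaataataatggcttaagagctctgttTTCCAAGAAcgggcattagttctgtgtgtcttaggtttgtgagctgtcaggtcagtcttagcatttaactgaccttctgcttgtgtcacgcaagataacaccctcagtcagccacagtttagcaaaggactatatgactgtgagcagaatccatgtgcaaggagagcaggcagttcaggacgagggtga
Entpd1 promoter, chr19:40612116-40612415, + strand: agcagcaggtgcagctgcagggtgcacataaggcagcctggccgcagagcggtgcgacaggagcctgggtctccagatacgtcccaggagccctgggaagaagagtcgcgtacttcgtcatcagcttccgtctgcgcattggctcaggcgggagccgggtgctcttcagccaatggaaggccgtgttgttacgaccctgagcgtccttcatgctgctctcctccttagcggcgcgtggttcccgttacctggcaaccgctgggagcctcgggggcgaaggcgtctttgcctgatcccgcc
Entpd1 promoter, chr19:40659520-40659819, + strand: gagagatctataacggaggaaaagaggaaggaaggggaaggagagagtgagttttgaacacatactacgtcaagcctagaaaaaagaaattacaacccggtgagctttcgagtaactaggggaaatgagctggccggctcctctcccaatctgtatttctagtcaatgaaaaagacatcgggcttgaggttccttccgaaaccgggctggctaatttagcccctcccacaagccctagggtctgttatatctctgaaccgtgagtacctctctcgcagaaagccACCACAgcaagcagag
The upstream Foxp3 window held a TATA box and the downstream one a STAT motif match, and the downstream Entpd1 window held a Runx motif match. No other match lay in these 4 windows, and none in the windows of Il2ra, Nrp1 and Nt5e. Of 32851 such windows in the table, 8.32% held the TATA box, 8.30% the STAT motif, 16.8% the Runx motif, 3.65% the forkhead motif and 1.79% the cyclic AMP response element. The Foxp3 windows had a GC content of 40.7 and 47.7% and the Entpd1 windows 64.0 and 48.7%.

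The libraries held 8485266 to 17854961 counts. Levels below are CPM, counts per 1000000 of a library size that was adjusted by edgeR's TMM method. Cd3e and Cd4, of the T cell gate, averaged 857 ± 122 and 623.7 ± 133 CPM in NMUR1+ CD4, 922 ± 69.5 and 730 ± 86.1 CPM in NMUR1- CD4, and 5.72 ± 4.06 and 5.84 ± 4.84 CPM in ILC2 (SD, n = 8). Nmur1, on whose reporter the cells were sorted, was at 6.14 to 75.3 CPM in libraries labelled NMUR1+ CD4, at 1.60 to 7.84 CPM in NMUR1- CD4 and at 167 to 328 CPM in ILC2. It was higher in the NMUR1+ than in the NMUR1- library of 7 of 8 mice. In mouse 1 the library labelled NMUR1+ had 0.854 times the Nmur1 CPM of the library labelled NMUR1-. Immunoglobulin RNA took 0.784 to 30.4% of the counts in NMUR1+ CD4, 0.146 to 5.58% in NMUR1- CD4 and 0.0241 to 7.93% in ILC2. The NMUR1+ libraries of mice 1, 4, 5 and 7 held 21.3 to 30.4%, and results are also given without these mice and without mouse 1.

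NMUR1+ CD4 T cells held more Foxp3 RNA than the NMUR1- CD4 T cells of the same mouse in all 8 mice. Foxp3 ran from 154 to 307 CPM in NMUR1+ CD4, with a median of 265 CPM, and from 62.2 to 202 CPM in NMUR1- CD4, with a median of 148 CPM. The populations overlapped, since the NMUR1+ libraries of mice 3 and 7 lay within the NMUR1- range. The means were 251 ± 55.6 and 145 ± 48.8 CPM (SD, n = 8 each). Within mice the NMUR1+ library had from 1.07 times (mouse 7) to 3.06 times (mouse 8) the Foxp3 CPM of the NMUR1- library, with a median of 1.75 times. An exact sign-flip permutation test of the within-mouse log2 difference (mean 0.85, SD 0.56, n = 8) gave a two-sided p = 0.00781, not adjusted, the smallest value that 8 mice allow. Any gene that is higher in all 8 mice reaches this value. The test was run for Foxp3 alone, and the share of all genes that reach it is not given here.

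The edgeR call on Foxp3 depended on which libraries shared the estimate of spread. In the fit of all 24 libraries the log2 difference was 0.79 (SE 0.36) with an edgeR adjusted p = 0.209, past no threshold of 0.05. In the fit of the 16 CD4 libraries alone it was 0.80 (SE 0.22) with an edgeR adjusted p = 0.0212. The difference itself hardly moved. The edgeR quasi-likelihood dispersion of Foxp3 was 1.67 with the ILC2 libraries in the fit and 0.484 without them. It multiplies the variance that each fit models, so the 2 values are not on the same scale. The biological coefficient of variation, edgeR's estimate of spread between replicates, was 0.416 and 0.361. In ILC2 Foxp3 had 0 counts in 6 of 8 libraries. DESeq2 and limma voom on all 24 libraries called it as well (adjusted p = 0.0166 and 0.00675). Without mice 1, 4, 5 and 7 the log2 difference was 1.24 (SE 0.25, edgeR adjusted p = 0.0436). That left mice 2 and 3 with NMU and mice 6 and 8 with PBS. These had the largest within-mouse Foxp3 ratios, 2.02 to 3.06 times, against 1.07 to 1.48 times in the mice left out. The mice left out were those with the largest immunoglobulin shares in NMUR1+ CD4. The choice of mice and the immunoglobulin share thus cannot be told apart in the larger difference. In the 16 CD4 libraries without mouse 1 the log2 difference was 0.88 (SE 0.24, edgeR adjusted p = 0.0295). Over 27 alternatives it ran from 0.68 to 1.24 and passed in 12, with edgeR, DESeq2 or limma adjusted p from 0.0065 to 0.377. Leaving out mouse 2, 6 or 8 ended the call of the 16 CD4 libraries (edgeR adjusted p = 0.0733, 0.0591 and 0.0826).

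Foxp3 was also set against T cell RNA in place of all RNA, because libraries differed in RNA of other cells. Per 1000 counts of the CD3 chain genes Cd3d, Cd3e and Cd3g, NMUR1+ CD4 libraries held 78.0 to 170 Foxp3 counts, with a median of 105. NMUR1- CD4 libraries held 26.3 to 82.2, with a median of 67.9. The value was higher in the NMUR1+ library of 8 of 8 mice, with a mean within-mouse log2 difference of 0.86 (SD 0.60, exact sign-flip permutation p = 0.00781, two-sided, not adjusted). With the CD3 genes as the library size, edgeR gave a log2 difference of 0.82 (SE 0.21, adjusted p = 0.0177).

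**Figure D1:**
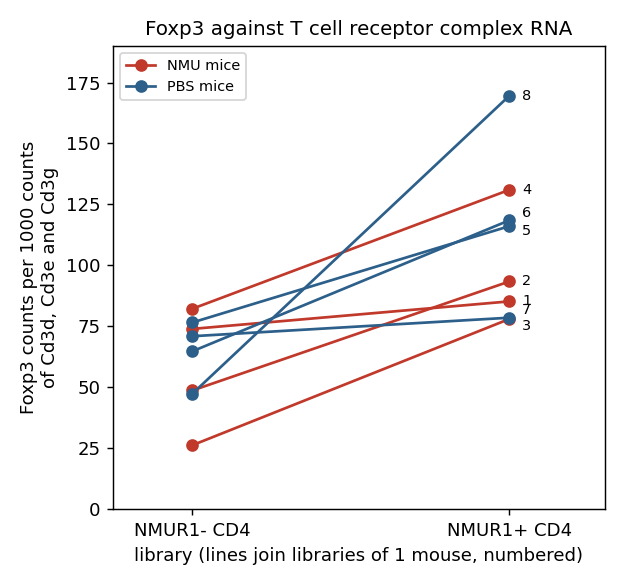
Foxp3 counts per 1000 counts of Cd3d, Cd3e and Cd3g in the NMUR1- and NMUR1+ CD4 library of each mouse, joined by a line and coloured by treatment, with mouse numbers at the right. All 8 lines go up towards the NMUR1+ library, least in mouse 7 (71.0 to 78.5) and most in mouse 8 (47.4 to 170).

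Markers of other cells also differed between the CD4 populations. In the fit of all 24 libraries 7 of 9 plasma cell markers, 3 of 11 macrophage and dendritic cell markers and 2 of 6 B cell markers were higher in NMUR1+ CD4, beside 5.49% of all genes, and none of these lists had a member that was lower. Plasma cell markers summed to 6222 to 307500 CPM in NMUR1+ CD4 and 1911 to 38810 CPM in NMUR1- CD4, macrophage and dendritic cell markers to 807 to 2489 and 221 to 917 CPM, and B cell markers to 137 to 450.3 and 50.6 to 179 CPM. No marker of these lists was at 0 in either population. Of plasmacytoid dendritic cell markers 3 of 4 tested were higher and of epithelial markers 1 of 6, of NK and CD8 T cell markers 1 of 6 was lower, and none of 6 endothelial, 7 fibroblast and 1 platelet markers tested was called. None of the 8 T cell gate genes was called in this fit, and they summed to 5437 to 7803 and 6631 to 7978 CPM. Of 7 genes used to identify ILC2, 4 were higher in NMUR1+ CD4 (Gata3, Il1rl1, Klrg1 and Il7r) and 1 lower (Thy1). All genes were higher in 5.49% and lower in 2.83%. The ILC2 genes summed to 5354 to 7884 CPM in NMUR1+ CD4 and 3846 to 5026 CPM in NMUR1- CD4. Among ILC2 libraries that of mouse 5 had both the largest immunoglobulin share, 7.93%, and the most Foxp3, 0.917 CPM. That of mouse 8, with the next largest share, 4.49%, had 0 counts of Foxp3. In the fit of the 16 CD4 libraries, 8 of 9 plasma cell and 3 of 6 B cell markers were higher in NMUR1+ CD4. So were 9 of 11 macrophage and dendritic cell, 4 of 4 plasmacytoid dendritic cell and 1 of 6 epithelial markers, beside 9.93% of all genes. Lower there were 1 of 8 T cell gate genes and 2 of 6 endothelial markers, beside 6.31% of all genes. The part of these other cells in the differences between CD4 populations was not tested.

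Of the receptors for interleukin 2, Il2ra was higher in NMUR1+ CD4 and Il2rb was not called. Il2ra, the high-affinity chain CD25, ran from 582 to 916 CPM in NMUR1+ CD4, with a median of 708 CPM. It ran from 354 to 585 CPM in NMUR1- CD4, with a median of 437 CPM. It was higher in 8 of 8 mice, by 1.19 to 2.18 times, and the populations overlapped only between 582 and 585 CPM. The log2 difference was 0.65 (SE 0.13, edgeR adjusted p = 0.00315). Il2ra was the 1 member of the 9 that passed in the fit of all 24 libraries, where 8.31% of 13509 genes tested were called, 5.49% higher. In the fit of the 16 CD4 libraries 3 of the 9 were higher (Foxp3, Il2ra and Entpd1), against 9.93% of 12955 genes higher and 6.31% lower. The Il2ra call ended without mice 1, 4, 5 and 7 (log2 0.62, SE 0.19, edgeR adjusted p = 0.125).

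Il2rb, the signaling chain shared with the interleukin 15 receptor, averaged 562 ± 159 CPM in NMUR1+ CD4 and 620 ± 209 CPM in NMUR1- CD4. It was higher in the NMUR1+ library of 4 of 8 mice, and its log2 difference of -0.13 had a 95% interval from -0.48 to 0.22 (edgeR adjusted p = 0.774). The beta chain thus had no common direction over mice.

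Of the ectoenzymes, Entpd1 stood higher in NMUR1+ CD4 and Nt5e did not. Entpd1, which removes phosphates from ATP and ADP, ran from 196 to 339 CPM in NMUR1+ CD4 (median 265 CPM) and from 72.4 to 167 CPM in NMUR1- CD4 (median 119 CPM). The populations did not overlap, and the NMUR1+ library had 1.71 to 3.56 times the CPM of the NMUR1- library in 8 of 8 mice. Entpd1 was the only member of the 9 with no overlap between the CD4 populations. The share of all genes without overlap is not given here, so nothing is read from that count. Its log2 difference was 1.19 in both fits, with an SE of 0.48 (edgeR adjusted p = 0.141) among all 24 libraries and of 0.16 (edgeR adjusted p = 0.000153) among the 16 CD4 libraries. Its quasi-likelihood dispersion was 2.81 in the first and 0.256 in the second, and its biological coefficient of variation 0.66 and 0.298. In the 16 CD4 libraries it passed whichever mouse was left out, and without mice 1, 4, 5 and 7 (edgeR adjusted p = 0.0254). Macrophages also make Entpd1, and 9 of the 11 macrophage and dendritic cell markers were higher in NMUR1+ CD4 in that fit, their part in the Entpd1 difference being not tested.

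Nt5e, which forms adenosine from AMP, averaged 281 ± 81.0 CPM in NMUR1+ CD4 and 264 ± 96.7 CPM in NMUR1- CD4. It was higher in the NMUR1+ library of 5 of 8 mice (log2 0.09, 95% interval -0.31 to 0.49, edgeR adjusted p = 0.884). With population means removed, Nt5e nevertheless had the largest correlation with Foxp3 among the members, given below.

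The Ikaros family partners of FOXP3 did not pass in the fit of all 24 libraries. Ikzf2 (Helios) ran from 114 to 324 CPM in NMUR1+ CD4 and from 65.3 to 214 CPM in NMUR1- CD4, with means of 224 ± 77.7 and 149 ± 58.6 CPM. It was higher in the NMUR1+ library of 7 of 8 mice, mouse 6 being the exception at 0.593 times (log2 0.58, SE 0.24, edgeR adjusted p = 0.147). Ikzf4 (Eos) ran from 10.4 to 61.1 and from 5.52 to 33.5 CPM, and was also higher in 7 of 8 mice with mouse 6 at 0.863 times (log2 0.90, SE 0.51, edgeR adjusted p = 0.327). Ikzf4 passed in 1 of 27 alternatives, added after the data were seen, which had the mouse as a replicate block in the 16 CD4 libraries (log2 0.83, SE 0.18, edgeR adjusted p = 0.00996). It did not pass with the block in all 24 libraries (edgeR adjusted p = 0.392) or in the 16 CD4 libraries without the block (0.177). Ikzf2 did not pass with the block in the 16 CD4 libraries (log2 0.63, SE 0.23, edgeR adjusted p = 0.0847). Both populations overlapped widely for both genes.

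Nrp1 and Lrrc32 were not called between the CD4 populations in the fit of all 24 libraries or in any alternative to it. Nrp1 averaged 45.3 ± 8.04 CPM in NMUR1+ CD4 and 33.4 ± 13.5 CPM in NMUR1- CD4, higher in 6 of 8 mice (log2 0.43, 95% interval -0.30 to 1.17, edgeR adjusted p = 0.580). Lrrc32 averaged 62.9 ± 38.2 and 59.0 ± 28.9 CPM, higher in 4 of 8 mice (log2 0.12, 95% interval -0.97 to 1.21, edgeR adjusted p = 0.953). The Lrrc32 libraries spread widely within each population, from 18.3 to 116 CPM in NMUR1+ CD4 and from 14.7 to 111 CPM in NMUR1- CD4. Over the 9 members the median log2 difference was 0.58, beside -0.01 for all 13509 genes tested.

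**Figure D2:**
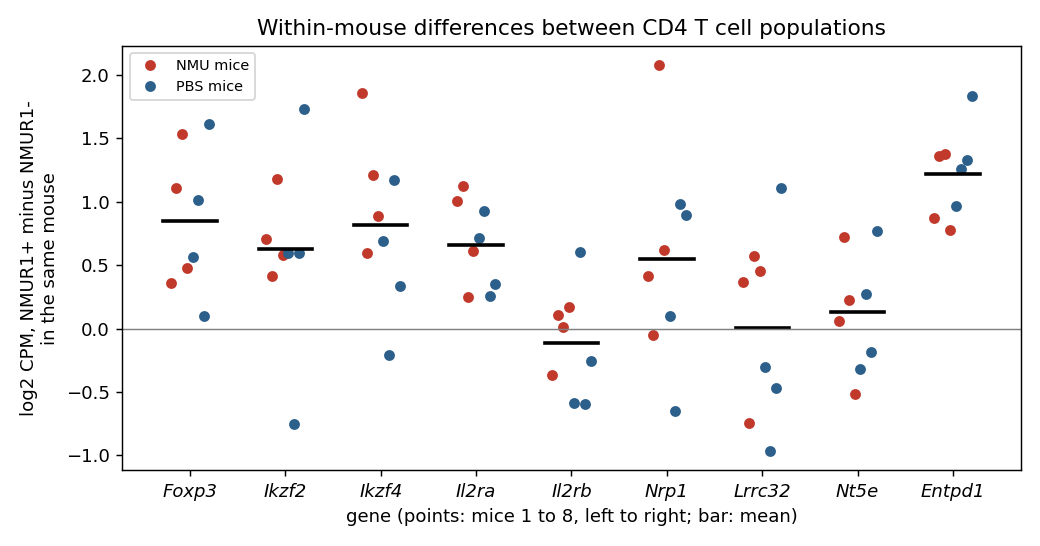
Log2 CPM of the NMUR1+ library minus that of the NMUR1- library in each of the 8 mice (points, ordered by mouse and coloured by treatment) for the 9 genes, with the mean over mice as a bar. All 8 points of Foxp3, Il2ra and Entpd1 lie above 0, while Il2rb and Lrrc32 have 4 of 8 points above it.

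**Figure D3:**
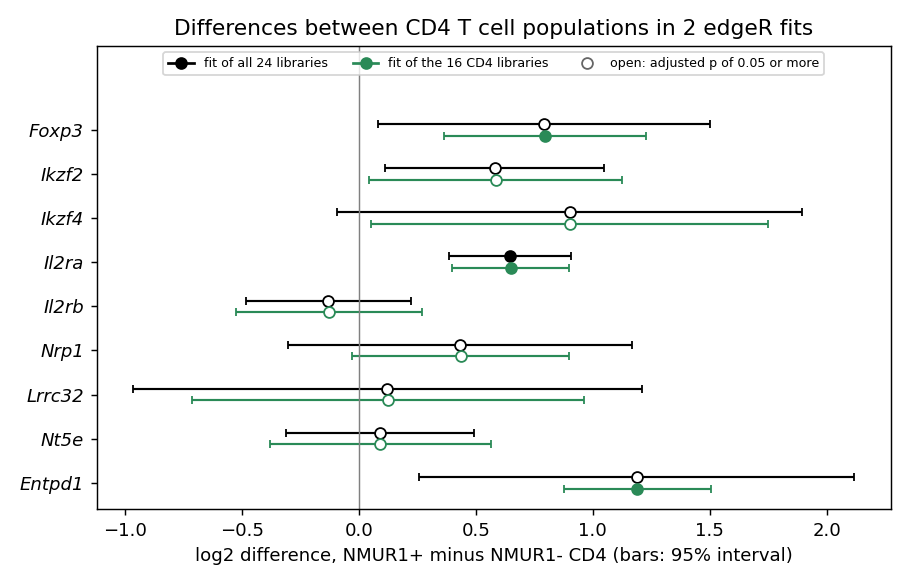
Log2 difference between NMUR1+ and NMUR1- CD4 T cells for the 9 genes with bars of the 95% interval, in the edgeR fit of all 24 libraries (black) and of the 16 CD4 libraries (green), filled where the adjusted p was under 0.05. The estimates of the 2 fits sit side by side, and the bars of Foxp3 and Entpd1 are shorter in the CD4 fit.

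The other regulatory T cell lists were then counted. Of 20 genes of activated and tissue regulatory T cells, 9 were higher and 1 lower in NMUR1+ CD4, against 5.49% of all genes higher and 2.83% lower, with a median log2 difference of 0.68 beside -0.01 for all genes. The 3 with the smallest p were Il1rl1, the receptor for interleukin 33 (266 ± 89.8 against 55.9 ± 17.2 CPM, log2 2.24, edgeR adjusted p = 1.61e-06), Klrg1, an inhibitory receptor (710 ± 231 against 110.5 ± 62.4 CPM, log2 2.68, edgeR adjusted p = 2.49e-05), and Tnfrsf9, the costimulatory receptor 4-1BB (1804 ± 489 against 801 ± 214 CPM, log2 1.17, edgeR adjusted p = 0.000425). Each was higher in 8 of 8 mice. Il1rl1 and Klrg1 were also abundant in ILC2 (378 ± 81.4 and 1165 ± 380 CPM) and serve to identify them. Tnfrsf9 was at 700 ± 204.5 CPM in ILC2. The list is thus not particular to regulatory T cells. Tgfb1 was the gene that was lower (13.7 ± 5.35 against 27.7 ± 13.3 CPM, log2 -0.99, edgeR adjusted p = 0.0496). Of 5 factors of peripherally induced regulatory T cells 1 was higher, again beside 5.49% of all genes, Gata3 (1536 ± 265 against 496 ± 133 CPM, log2 1.63, edgeR adjusted p = 7.2e-07), which also drives ILC2 and type 2 helper T cells, and which was at 5642 ± 701 CPM in ILC2.

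Genes that conventional T cells express above regulatory ones leaned the other way. Of 18 such genes 6 were lower and 2 higher in NMUR1+ CD4, against 2.83% of all genes lower, with a median log2 difference of -0.72. Tcf7 and Lef1, factors of naive and memory T cells, were at 37.2 ± 16.4 against 195 ± 39.0 CPM and 31.6 ± 8.20 against 90.1 ± 27.2 CPM (log2 -2.40 and -1.51, edgeR adjusted p = 2.33e-06 and 0.000111). Ccr7, a lymph node homing receptor, was at 364 ± 59.9 against 724 ± 206 CPM (log2 -0.99, edgeR adjusted p = 0.000776). The 2 that were higher were Il4 (2.73 ± 3.48 against 0.162 ± 0.154 CPM) and Il7r (368 ± 89.5 against 266 ± 34.9 CPM, log2 0.47, edgeR adjusted p = 0.0379). The list was chosen as the counterpart of regulatory T cells, but Tcf7, Lef1 and Ccr7 are low in any effector T cell.

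The lists of pathways around the members held few called genes, in counts of 1 to 4 a list beside the 8.31% of all genes called in either direction, and nothing is read from them about a pathway as a whole. Of 11 interleukin 2 signaling genes 1 was higher, the feedback inhibitor Socs2 (142 ± 58.3 against 61.1 ± 7.42 CPM, log2 1.21, edgeR adjusted p = 0.000401), and 1 lower, the survival gene Bcl2 (13.2 ± 9.77 against 27.8 ± 8.86 CPM, log2 -1.10, edgeR adjusted p = 0.0343). Of 8 genes of the adenosine pathway 1 was higher, the low-affinity adenosine receptor gene Adora2b (14.1 ± 7.30 against 1.69 ± 0.596 CPM, log2 3.06, edgeR adjusted p = 8.41e-05). Of 15 tested genes of TGF-beta activation and reception, 2 were higher and 2 lower. Nrros, a GARP relative that holds latent TGF-beta on myeloid cells, was at 284 ± 56.6 against 138 ± 21.3 CPM and the integrin chain Itgav at 182 ± 37.4 CPM in NMUR1+ CD4 (log2 1.04 and 0.83, edgeR adjusted p = 0.000439 and 0.00808). The receptor Tgfbr3 (log2 -1.26) and the signal transducer Smad2 (log2 -0.49) were lower (edgeR adjusted p = 0.0379 and 0.0159). Of 19 partners and regulators of FOXP3, the NF-kappaB subunit Rel was higher (420 ± 118 against 272 ± 76.7 CPM, log2 0.63, edgeR adjusted p = 0.0315). The Runx cofactor Cbfb (113 ± 30.4 against 201 ± 35.9 CPM, log2 -0.83, edgeR adjusted p = 0.00161) and Ikaros itself, Ikzf1 (133.5 ± 23.3 against 212 ± 45.8 CPM, log2 -0.67, edgeR adjusted p = 0.00651), were lower in 8 of 8 mice.

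Levels of different genes were compared only per length, as CPM per 1000 bases of the union of annotated exons (GENCODE M21). In NMUR1+ CD4 the order of these levels ran from Il2rb (131 ± 37.0) and Il2ra (127.5 ± 22.3), which did not differ beyond their spread, through Foxp3 (54.8 ± 12.2) and Entpd1 (48.2 ± 7.62), also within their spread, to Nt5e (32.6 ± 9.41), Ikzf2 (19.3 ± 6.69) and Lrrc32 (13.4 ± 8.15). Ikzf4 (5.45 ± 3.38) and Nrp1 (4.63 ± 0.822) were lowest. In NMUR1- CD4 the mean of Il2rb (145 ± 48.7) was above that of Il2ra (81.3 ± 16.03), and Foxp3 (31.6 ± 10.7) and Nt5e (30.6 ± 11.2) were level. The mean of Entpd1 (21.3 ± 6.41) was below that of Nt5e. Both of these differences in means lay within the spread. In ILC2 Il2rb (184.5 ± 24.6) and Il2ra (172 ± 32.8) again led, followed by Nt5e (27.4 ± 2.503), with Foxp3 and Lrrc32 last.

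Foxp3 was followed across the 16 CD4 libraries to see which genes shared its pattern, as Pearson's r of log2 CPM. These r are descriptions over libraries that share mice, depth and population. Of 7831 genes with a mean of at least 10 CPM, the 8 closest were Itgav (r = 0.939), the ETS factor Ets2 (0.926), the retinal reductase Dhrs3 (0.921), Itgae (0.915), the CD103 integrin chain of intestinal lymphocytes, Neb (0.910), the class I gene H2-D1 (0.907), the syntenin relative Sdcbp2 (0.907) and Ccn4 (0.906). Of the members, Entpd1 came closest (r = 0.865, rank 39). It was followed by Ikzf2 (0.742, rank 310), Nt5e (0.726), Nrp1 (0.651), Ikzf4 (0.612), Lrrc32 (0.455), Il2ra (0.376) and Il2rb (0.269). By Spearman's rank correlation Entpd1 was again the closest member (0.824), but Nrp1 was the least close (0.203). With each population's mean removed, Nt5e had the largest r with Foxp3 (0.879) and Entpd1 the next (0.753), while Il2ra was at -0.389. Jchain, of plasma cells, had an r of 0.653 with Foxp3 over the 16 libraries and of 0.335 with population means removed. Among the members themselves the largest r was that of Foxp3 with Entpd1 and the next that of Ikzf2 with Ikzf4 (0.819).

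**Figure D4:**
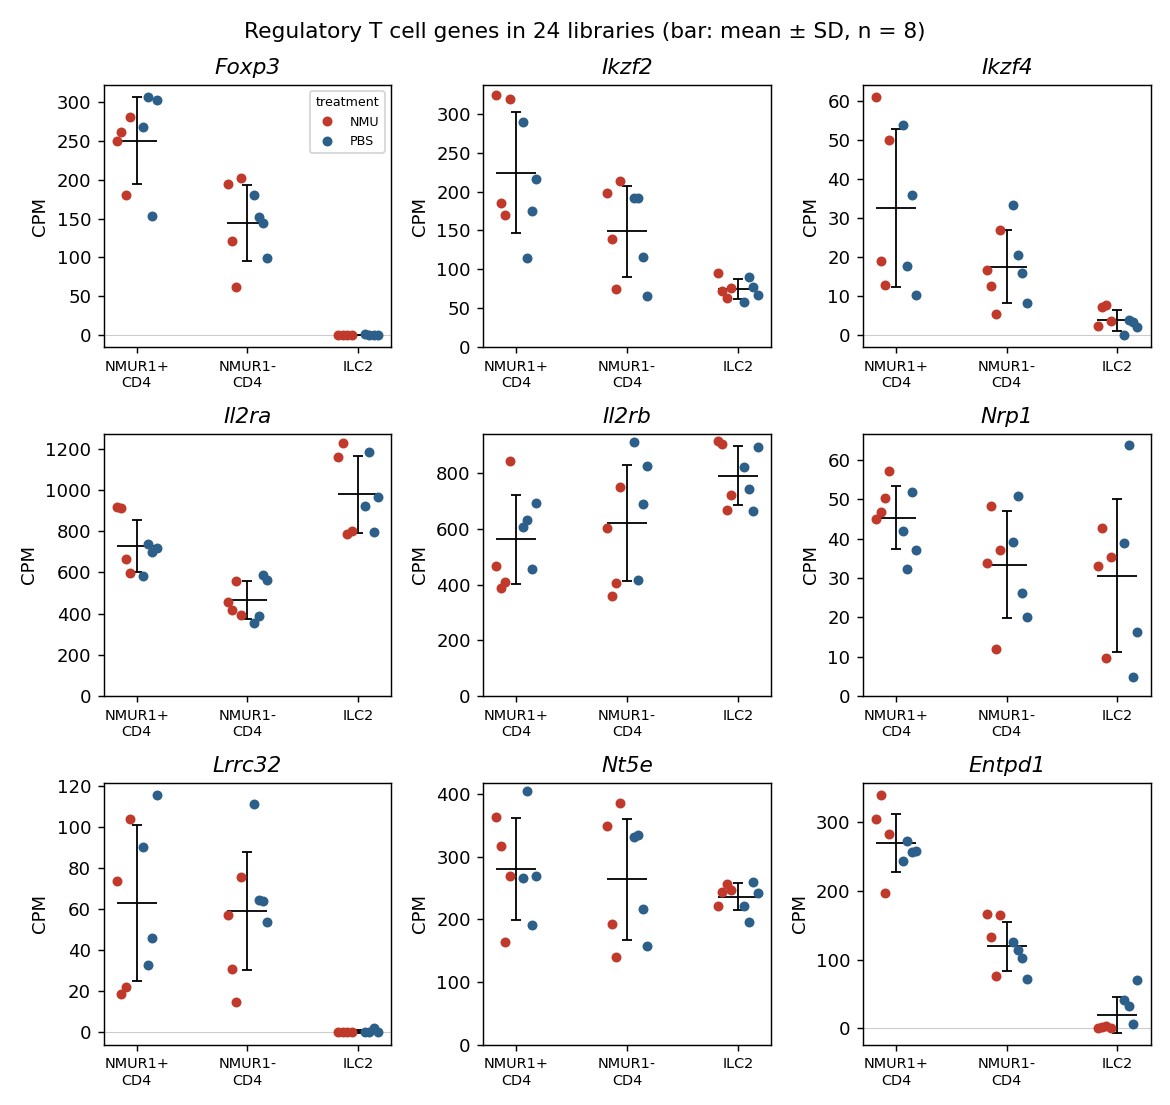
CPM of the 9 genes in each of the 24 libraries by population, with NMU mice in red and PBS mice in blue, and the mean ± SD of 8 libraries as bars. Foxp3 and Lrrc32 lie at the floor in ILC2, Il2ra is highest there, and NMU and PBS points intermingle in both CD4 populations.

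ILC2 held almost no Foxp3 or Lrrc32 RNA and more Il2ra RNA than either CD4 population. Foxp3 had 12 counts over the 8 ILC2 libraries, 11 of them in mouse 5, against 23541 counts over the NMUR1+ CD4 libraries. Lrrc32 had 20 counts over the ILC2 libraries, all in mouse 7. Every ILC2 library lay below every CD4 library for both genes. They passed the count filter through the CD4 libraries, so no p-value or fold is given against counts this low. Entpd1 averaged 19.4 ± 25.8 CPM in ILC2, Ikzf4 3.80 ± 2.61 CPM and Ikzf2 74.9 ± 12.6 CPM. They were lower than in NMUR1+ CD4, with log2 differences of -5.14, -3.21 and -1.57 (edgeR adjusted p = 6.41e-07, 7.89e-05 and 2.27e-05), and lower than in NMUR1- CD4, with -3.96, -2.31 and -0.99 (edgeR adjusted p = 7.42e-06, 0.00142 and 0.00211).

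Il2ra was highest in ILC2, at 785 to 1229 CPM with a mean of 980 ± 187 CPM. It was above NMUR1+ CD4 (log2 0.43, SE 0.13, edgeR adjusted p = 0.0133) and NMUR1- CD4 (log2 1.08, SE 0.13, edgeR adjusted p = 9.01e-07), so the populations stood in the order ILC2, NMUR1+ CD4 and NMUR1- CD4. Il2rb averaged 791 ± 106 CPM in ILC2 (log2 0.50 against NMUR1+ CD4, edgeR adjusted p = 0.0320; log2 0.37 against NMUR1- CD4, edgeR adjusted p = 0.109). The first call ended without mouse 1, 2, 5, 7 or 8 (edgeR adjusted p = 0.0518 to 0.0934), and the second was made with the mouse as a replicate block (log2 0.42, edgeR adjusted p = 0.0315) or without mouse 4 (0.0111). Nt5e (236 ± 21.5 CPM) and Nrp1 (30.6 ± 19.4 CPM) were not called against NMUR1+ CD4 (edgeR adjusted p = 0.355 and 0.252) or NMUR1- CD4 (0.570 and 0.823). Against NMUR1+ CD4, 15.1% of all 13509 genes tested were higher in ILC2 and 23.5% lower, beside 2 and 5 of the 9 members. Against NMUR1- CD4 40.5% of genes were called, 16.4% higher and 24.1% lower, beside 1 and 5 members. The 5 lower members in each count include Foxp3 and Lrrc32, which passed the count filter through the CD4 libraries.

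Treatment with NMU moved none of the members past the test in CD4 T cells. In NMUR1+ CD4 Foxp3 was at 250.4, 261, 180.0 and 282 CPM in the 4 NMU mice and at 268, 307, 154 and 303 CPM in the 4 PBS mice. In NMUR1- CD4 it was at 195, 121, 62.2 and 202 CPM with NMU and at 180.9, 152, 144 and 99.0 CPM with PBS. The treatments overlapped in both populations, and the log2 differences were -0.08 (SE 0.22, 95% interval -0.52 to 0.35) and 0.01 (SE 0.34, 95% interval -0.66 to 0.67), with edgeR adjusted p of 1.00 and 0.998. Il2ra was at 916, 914.5, 662.6 and 598 CPM with NMU and at 582, 735.5, 697 and 719 CPM with PBS in NMUR1+ CD4 (log2 0.18, SE 0.16, edgeR adjusted p = 1.00). Entpd1 was at 304, 339, 196 and 282 CPM with NMU and at 244, 272, 256 and 258 CPM with PBS (log2 0.13, SE 0.16, edgeR adjusted p = 1.00). Among NMUR1- CD4 libraries the log2 differences of Il2ra and Entpd1 were -0.06 (SE 0.19) and 0.38 (SE 0.25), with edgeR adjusted p of 0.971 and 0.797. For the other 6 members the log2 differences ran from -0.39 for Lrrc32 to 0.33 for Ikzf2 in NMUR1+ CD4, and from -0.72 for Lrrc32 to 0.14 for Ikzf2 in NMUR1- CD4. The edgeR test called 0 of 12061 genes in NMUR1+ CD4 (percent called 0) and 0 of 12103 in NMUR1- CD4 (percent called 0), where 307 and 877 genes had an unadjusted p under 0.05, DESeq2 called 2 and 21 and limma voom 0 and 0.

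The excess of Foxp3 in NMUR1+ over NMUR1- CD4 was present under both treatments. The within-mouse log2 difference averaged 0.87 ± 0.55 in NMU mice and 0.82 ± 0.65 in PBS mice (SD, n = 4 each), and 4 of 4 mice of each treatment lay above 0. The test of the difference between them gave a log2 of -0.10 (SE 0.72, 95% interval -1.51 to 1.31, edgeR adjusted p = 1.00). For Il2ra the averages were 0.75 ± 0.40 and 0.56 ± 0.31, and for Entpd1 1.09 ± 0.32 and 1.34 ± 0.36, with edgeR adjusted p of 1.00 for both differences. The edgeR test of this difference called 0 of 13509 genes (percent called 0, 157 with an unadjusted p under 0.05; DESeq2 called 4, limma voom 0 and the fit with a replicate block 1).

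In ILC2 the members tested did not pass between NMU and PBS, where 0.66% of 11205 genes did, 0.402% higher and 0.259% lower. Foxp3 and Lrrc32 were not tested there. Il2ra (log2 0.02, SE 0.18), Il2rb (0.02, SE 0.14), Nt5e (0.06, SE 0.13) and Ikzf2 (0.04, SE 0.20) had edgeR adjusted p from 0.911 to 0.986, and Nrp1 (-0.05, SE 0.67) and Ikzf4 (1.16, SE 1.25) of 0.991 and 0.798. Entpd1 was at 0, 1.58, 4.26 and 0.21 CPM in ILC2 of NMU mice and at 41.3, 32.0, 6.09 and 70.0 CPM in ILC2 of PBS mice. The groups did not overlap, yet the spread in each was wide (log2 -4.62, SE 1.17, edgeR adjusted p = 0.118). For these groups, too, the share of all genes without overlap is not given. The fit of all 24 libraries and DESeq2 called it (log2 -4.60 and -4.64, adjusted p = 0.00234 and 0.000211). Macrophage and dendritic cell markers summed to 77.8 to 365 CPM in ILC2 of NMU mice, where Flt3 and Itgax were at 0, and to 107 to 918 CPM in ILC2 of PBS mice, with none of the 11 at 0. Plasma cell markers summed to 968 to 6179 CPM with NMU and 5395 to 60410 CPM with PBS, none of the 9 being at 0. Fibroblast markers summed to 0 to 28.2 CPM with NMU, Lum being at 0, and to 11.1 to 384 CPM with PBS. The part of other cells in the Entpd1 values of ILC2 was not tested. The NMU effect on Entpd1 in ILC2 minus that in CD4 T cells was called as well, with 1.5% of 13509 genes called and 0.933% lower.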

How the data were processed

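Sorted cells gave RNA (RNeasy Micro) and then unstranded NEBNext low-input libraries, per the labels' protocols. The submitters' processing notes name STAR 2.5.3 and mm10. Which program counted reads, and with what annotation or strand setting, is not given in the sources used here. As a table of whole genes, the authors deposited whole-number counts per Entrez gene, not normalized. Of 27179 identifiers 25275 had a symbol in RefSeq (GRCm38.p6), and the rest held 0.986% of counts. Reads carry no molecular identifiers.

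Counts were tested with edgeR 4.0.16 (R 4.3.3): filterByExpr with a minimum count of 10, TMM scaling, robust quasi-likelihood tests, Benjamini-Hochberg adjustment over all genes tested and a threshold of 0.05. Populations and differences between NMU effects were tested in 1 fit of 24 libraries with 6 group means, and NMU against PBS within each population's 8 libraries. The SE is the log2 difference over the square root of its F value, and 95% intervals assume a normal error. The log2 CPM used a prior count of 2. DESeq2 1.42.0, limma 3.58.1, other scaling, filtering and sets of libraries were alternatives. The replicate block is the mouse, since the labels name 1 mouse for its 3 libraries; deviations from group means correlated at 0.029 to 0.432 between the CD4 libraries of a mouse. No pair of replicates agreed within sampling noise (lowest chi-square per degree of freedom 16.55). Labels name separate mice. The edgeR step was tested on simulated data.

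Named genes were the 9 members, up to 3 genes per list and direction with the smallest p in the comparison of CD4 populations, the 8 genes most like Foxp3, and gate genes. Members, lists and the mice left out were chosen with earlier results of these data known; the fits of the 16 CD4 libraries with a block or with mice left out were chosen after the data were seen.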

Additional observations from a re-analysis of the deposited data

Results flagged for a closer look

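Entpd1 had a different NMU effect in ILC2 than in CD4 T cells by a test of the difference (log2 -4.85, SE 0.90, edgeR adjusted p = 0.0107, beside 1.5% of 13509 genes called and 0.933% lower), with levels of 0 to 4.26 CPM in ILC2 of NMU mice, 6.09 to 70.0 CPM in ILC2 of PBS mice and log2 changes of 0.13 and 0.38 in NMUR1+ and NMUR1- CD4. Over 14 alternatives the adjusted p ran from 3.61e-06 to 0.092, missing with limma voom (0.092) and without mouse 8 (log2 -4.29, edgeR adjusted p = 0.0512). Among 54 sets of 4 libraries, 2 held a library far from the other 3, where chance gives about 1 in 20 for normally distributed values. Both were sets near 0 counts, where that rate need not hold, and sets with every library at 0 were counted but could hold none. Foxp3 was at 0.917 CPM in ILC2 of PBS mouse 5 against 0 to 0.0923 CPM in the other PBS mice. Lrrc32 was at 1.85 CPM in ILC2 of PBS mouse 7 against 0 CPM in the other 3.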

How the results depend on the processing

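Foxp3 passed between the CD4 populations with DESeq2 (log2 0.82, 2 members higher), limma voom (0.86, 3 higher), the 16 CD4 libraries (0.80, 3 higher), scaling to the CD3 genes (0.82, 3 higher), the mice other than 1, 4, 5 and 7 (1.24 in all populations with 1 higher, 1.24 in CD4 libraries with 2 higher) and the 16 CD4 libraries with a replicate block (0.85, 4 higher). With the replicate block in all 24 libraries it did not (0.86, edgeR adjusted p = 0.112), and of the calls on members the block changed that of Il2rb between ILC2 and NMUR1- CD4 alone. Leaving out each mouse gave 0.68 to 0.89, in either fit, with 1 to 3 members higher. Genes called numbered 2104 in the 16 CD4 libraries, 2405 with the block there, 377 without mice 1, 4, 5 and 7, and 609 to 2027 with each mouse left out. Settings that leave out mice hold fewer samples; the cause of the other moves was not tested.

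NMU effects called 2 and 21 genes with DESeq2 in NMUR1+ and NMUR1- CD4 and 0 to 1 in NMUR1+ CD4 with each mouse left out. In ILC2 they called 472 genes with DESeq2, 1053 in the fit of all 24 libraries and 12 to 63 with each mouse left out. The difference of effects called 4 genes (DESeq2) and 1 (replicate block) between CD4 populations, and 748 (DESeq2), 109 (limma voom) and 79 to 246 (each mouse left out) between ILC2 and CD4.

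Over all members, comparisons and alternatives, 66 of 1069 log2 differences reversed, none of them called in the first place (largest 0.34, lowest adjusted p 0.775). Between CD4 populations these were Lrrc32 (-0.13 with limma voom, -0.11 to 0.22 with each mouse left out), Nt5e (-0.040 to 0.23) and Il2rb (0.040 and 0.045 without mice 1, 4, 5 and 7). For NMU, leaving out each mouse gave Foxp3 -0.27 to 0.039 in NMUR1+ CD4 and -0.19 to 0.26 in NMUR1- CD4 (-0.10 with limma voom), Ikzf2 -0.096 to 0.37 and Il2ra -0.18 to 0.065 in NMUR1- CD4. In ILC2 it gave Ikzf2 -0.070 to 0.15, Il2ra -0.10 to 0.13 (-0.017 with limma voom), Il2rb -0.051 to 0.098, Nrp1 -0.41 to 0.57 (0.15 with limma voom) and Nt5e -0.012 to 0.13. The difference of Foxp3 effects between CD4 populations was 0.0092 with limma voom, 0.015 with the replicate block and -0.28 to 0.13 with each mouse left out.

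Foxp3 and Lrrc32 had too few counts in ILC2 for an NMU effect. The median of all genes between CD4 populations ran from -0.07 to 0.02 over the alternatives. With n = 4 mice per treatment, spread between mice limits the NMU comparisons.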
